A study of Mus musculus with 2 samples.

Results

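Bc1, Malat1, Miat, Snhg11, Snhg9 and AA465934 are 6 genes for noncoding RNAs detected in mouse brain, and their rows were taken by symbol from the 32285 gene rows of 2 spatial expression matrices. Each symbol matched 1 row, so all 6 were found. Bc1, Snhg9 and AA465934 were chosen by a measured value, their low ratio between the sections in an earlier look at these data, so that ratio is given for them as a description and supports nothing. The series holds 2 coronal brain sections with the dorsal hippocampus of both sides, profiled with Visium, in which a slide carries a grid of barcoded spots that each capture polyadenylated RNA from the tissue above. Both mice were adult males of the genotype ArcCreERT2::eYFPflx on a C57BL/6 background, in which the Arc promoter drives a tamoxifen-inducible Cre and a reporter gene is switched on by it. The trained mouse had learned active place avoidance on a rotating arena with a shock zone, and the untrained mouse had walked the same arena with the shock always off. Both brains were frozen about an hour after a retention test without shock. Each group was 1 section of 1 mouse (n = 1 and n = 1), so no difference between the groups had a replicate check and no test was run. Animal, section, library and training cannot be told apart. The sections are called trained and untrained here after their deposited labels. Arc, Egr1 and Jun, genes switched on by neuronal activity, had a UMI in 35.8%, 43.8% and 30.7% of hippocampal spots in the trained section and in 62.0%, 69.2% and 56.0% in the untrained one, whose spots were deeper. Their levels were 82.5, 163 and 90.9 CPM against 75.0, 139 and 74.6 CPM, in the other order. The text of the study gives the larger share of spots for each of these genes to the trained animal. It may thus use the labels the other way round. Its shares of Egr1 and Jun in the trained animal are near those of the untrained section here. Its share of Arc in the trained animal is instead near that of the trained section here, and the question was not settled. Every direction here holds for the deposited labels and not for the training itself.

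The unit of every level is the count of unique molecular identifiers (UMIs, tags that mark a captured RNA molecule once), pooled over the spots of a region and scaled to a total of 1000000, called CPM. There were 4152 spots with 29515831 UMIs in the trained section, against 3738 spots with 59029131 UMIs in the untrained one. Hippocampal spots were shallower in the trained section, with a median of 5303 UMIs against 16259.5. The left side was the shallower side in both sections, at 2904 against 7992 UMIs per spot in the trained section and 11120 against 21533 in the untrained section. Of the spot barcodes 3448 occurred in both sections, 83.0% and 92.2% of their spots, because every Visium slide carries the same barcode list. A spot is a small patch of tissue that can hold several cells, so fewer cells of a type and less RNA per cell cannot be told apart. Regions came from a joint clustering of spots and were named from marker genes. The hippocampus comprised the CA1 pyramidal layer (110 and 121 spots in the trained and untrained section), a CA3/CA2 layer (78 and 127), the granule layer of the dentate gyrus, DG (159 and 155), and the remaining hippocampal spots, called neuropil (240 and 165). CA1 was led by Fibcd1, Lefty1 and Spink8, DG by Dsp, C1ql2 and Lct, and the CA3/CA2 layer by Klk8, Homer3 and Neurod6. The cluster that made up most of the neuropil was led by Ddn and Camk2a, whose mRNAs are known to be carried into dendrites. Of its spots 87.4% lay within 2 steps of a cell layer. That cluster matched the CA1 marker set best, at a mean z score of 1.18, but no CA1 marker was among its 10 leading genes. Outside the hippocampus 11 regions had at least 30 spots in both sections, which gave 15 regions in all. Clusters 4, 5 and 20 among them matched no marker set and are given by number. Intervals are 95% intervals and cover counting error only.

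In pyramidal and granule neurons the cell bodies and nuclei are packed into thin layers, and the dendrites, axon terminals and much of the glia fill the neuropil between them. An RNA kept in the nucleus is therefore seen mainly over the layers, whereas an RNA carried into dendrites, or made in glia, is also seen between them. Bc1 is a short transcript of RNA polymerase III that is found in dendrites and represses translation there. Malat1 is a nuclear RNA of speckles present in nearly all cell types. Miat, also called Gomafu, stays in the nucleus of neurons in a domain of its own and binds splicing factors. Snhg11, Snhg9 and, by the annotation, AA465934 are host genes, whose primary transcripts hold small nucleolar RNAs (snoRNAs, guides for the modification of ribosomal RNA).

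Stretches of 5 of the RNAs are printed because the capture method takes hold of runs of adenine, and these RNAs differ in where such runs or a polyadenylation signal lie. They are given in the sense strand, from the GENCODE vM21 transcripts on GRCm38, the build of the deposited counts. Bc1 (ENSMUSG00000115783, chr7:144914470-144914637, plus strand, 1 exon) is printed whole, with its runs of at least 6 adenines in capitals. Malat1 (ENSMUSG00000092341, chr19:5795690-5802672, minus strand, 1 exon) is shown around its longest adenine run, in capitals, at chr19:5795958-5796029. Miat (ENSMUSG00000097767, chr5:112213228-112229395, minus strand, 7 exons) is shown at chr5:112217309-112217460, where 3 of its 6 copies of TACTAAC, the branch point motif of introns, stand in capitals. Snhg9 (ENSMUSG00000090101, chr17:24719531-24719965, minus strand, 2 exons) is printed whole after splicing, with the polyadenylation signal AATAAA in capitals. AA465934 (ENSMUSG00000093483, chr11:83291699-83294632, plus strand, 2 exons) is shown by its last 100 bases, at chr11:83294531-83294630, with the variant signal ATTAAA in capitals. Snhg11 (ENSMUSG00000044349, chr2:158375638-158386145, plus strand, 5 exons) is described by its values.
Bc1: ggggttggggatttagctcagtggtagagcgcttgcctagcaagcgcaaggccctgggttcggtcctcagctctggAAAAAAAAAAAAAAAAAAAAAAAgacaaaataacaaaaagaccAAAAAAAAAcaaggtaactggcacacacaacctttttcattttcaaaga
Malat1: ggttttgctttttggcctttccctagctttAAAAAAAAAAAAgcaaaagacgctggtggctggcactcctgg
Miat: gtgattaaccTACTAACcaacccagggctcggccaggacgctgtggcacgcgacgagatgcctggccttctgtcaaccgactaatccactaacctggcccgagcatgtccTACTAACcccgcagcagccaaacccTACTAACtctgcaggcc
Snhg9: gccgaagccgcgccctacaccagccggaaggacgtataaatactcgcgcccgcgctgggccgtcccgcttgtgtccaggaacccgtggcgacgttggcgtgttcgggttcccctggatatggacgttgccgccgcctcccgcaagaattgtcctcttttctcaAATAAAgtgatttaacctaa
AA465934: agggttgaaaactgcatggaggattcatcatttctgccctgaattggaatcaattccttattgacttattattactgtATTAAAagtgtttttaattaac

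Bc1 carries its adenines inside the RNA, as an unbroken run of 23 that is followed by a second, interrupted stretch. Of 32158 genes with a transcript sequence, 267 (0.83%) had a run at least that long in their longest transcript. The longest run of Malat1 was 12 bases, a length reached by 7.64% of genes. AATAAA was found in the last 50 bases of Malat1, Snhg11 and Snhg9, on the sense strand, and in 48.2% of all genes, and no match was found in this window of Bc1, Miat and AA465934. TACTAAC occurred in 6.26% of genes, and 3 genes, Miat among them, had at least as many copies as Miat has. The longest transcripts of Bc1, Snhg9 and AA465934 were short, at 168, 183 and 471 bases, whereas those of Snhg11, Malat1 and Miat measured 5864, 6983 and 9163 bases. Because the counts come from captured ends of molecules and were not scaled by length, no level is compared between genes. The exception is the most abundant gene of a list, which was picked by CPM alone.

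Bc1, the dendritic RNA, had its highest level in hippocampal neuropil among the 15 regions of both sections and was lower over each cell layer. With coarser clusters, at a Leiden resolution of 1.0, the highest region of the untrained section was another cluster. In the trained section its level was 122 CPM (95% interval 97.5 to 150) in the neuropil, 46.9 CPM in CA1, 33.5 CPM in CA3/CA2 and 42.9 CPM in DG. In the untrained section it was 1229 CPM (1175 to 1286) in the neuropil, 549 CPM in CA1, 444 CPM in CA3/CA2 and 382 CPM in DG. The intervals of neuropil and each layer did not overlap in either section. The log2 ratio of CA1 over neuropil was -1.37 (-1.90 to -0.87) in the trained section and -1.16 (-1.26 to -1.06) in the untrained section, that is 2.58 and 2.24 times lower over the cell bodies. For CA3/CA2 it was -1.85 (-2.46 to -1.29) and -1.47 (-1.57 to -1.37), and for DG -1.50 (-1.99 to -1.02) and -1.69 (-1.78 to -1.59). The order of the layers thus differed between the sections, with CA3/CA2 lowest in the trained section and DG lowest in the untrained section. In the trained section the interval of CA3/CA2 overlapped those of the other layers. The size of the Bc1 ratio depended on the processing, and its smallest size in the trained section was -0.64 in CA1 and -0.55 in DG. In the untrained section the smallest size was -0.80 in CA1 and -1.31 in DG.

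The number of Bc1 UMIs per spot was not lower in CA1 than in neuropil in the way its share of all RNA was. A CA1 spot held 0.473 Bc1 UMIs on average and a neuropil spot 0.367 in the trained section, a ratio of 1.29. In the untrained section the values were 11.6 and 11.6 UMIs, a ratio of 0.995. Neuropil spots held fewer UMIs of all genes, a median of 2563 against 8042 in CA1 in the trained section and 8340 against 17193 in the untrained section. The lower CPM over CA1 thus went with a larger total. In DG the ratio per spot was 1.11 in the trained section and 0.824 in the untrained section, where the count per spot was also smaller than in the neuropil.

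Close to the CA1 layer the level of Bc1 changed from 1 spot to the next. Neuropil spots 1 step from CA1 held 132 CPM (90.3 to 186) in the trained section and 1293 CPM (1194 to 1398) in the untrained section, both above the layer itself. In neuropil spots that touched no spot of any layer Bc1 stood at 139 and 1478 CPM. Within CA1 the shallower 55 spots of the trained section had 114 CPM and the deeper 55 had 23.2 CPM, and in the untrained section the shallower 60 had 905 CPM and the deeper 61 had 410 CPM. DG showed the same order, at 62.0 against 35.6 CPM in the trained section, with overlapping intervals, and at 712 against 232 CPM in the untrained section. In the neuropil the intervals of shallower and deeper spots overlapped in both sections, at 86.2 and 138 CPM in the trained section and at 1257 and 1217 CPM in the untrained section. In CA1 of both sections and DG of the untrained section Bc1 was thus lower in the deeper spots. White matter of the untrained section had the reverse order, at 448 CPM (409 to 490) in shallower and 556 CPM (527 to 586) in deeper spots. In the trained section white matter had 72.1 and 45.0 CPM, with overlapping intervals. The part of spot depth in these levels was not tested.

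**Figure D1:**
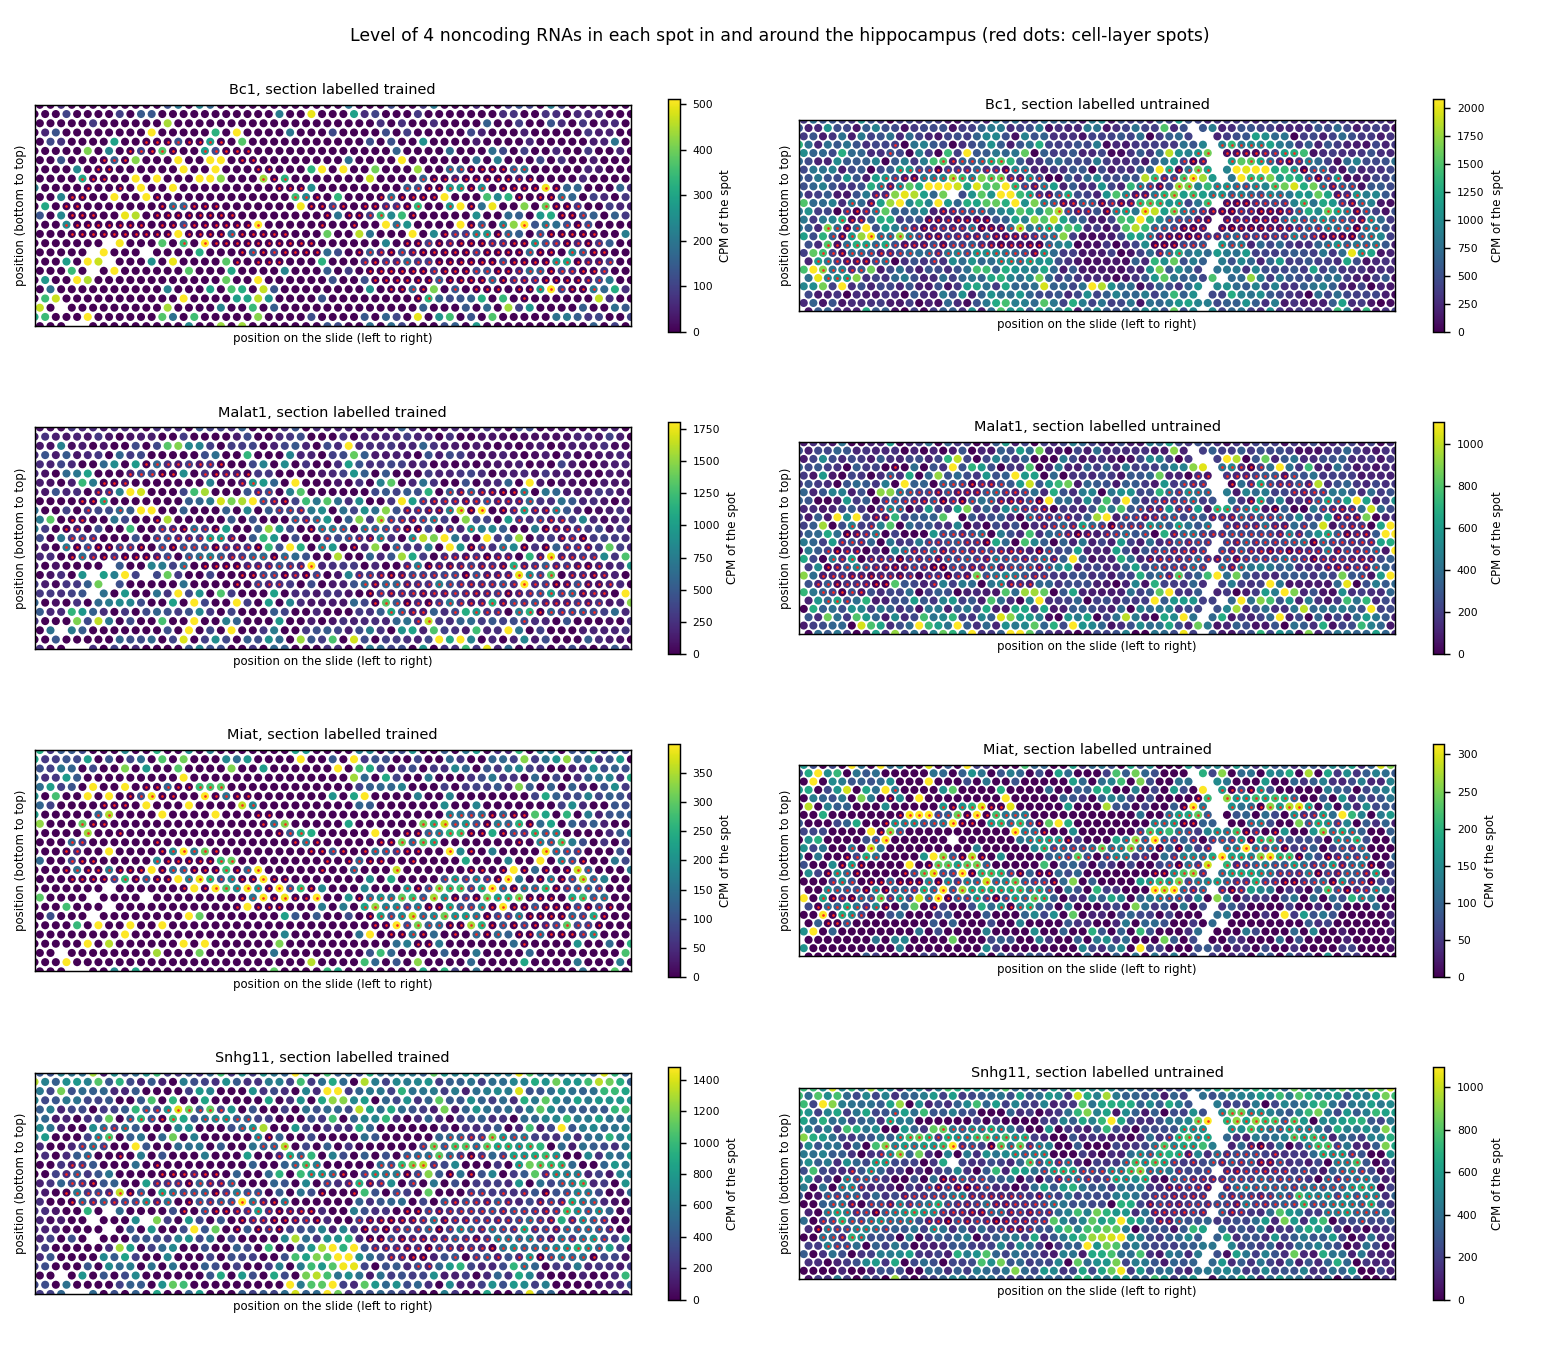
Level of Bc1, Malat1, Miat and Snhg11 in each spot in and around the hippocampus, as CPM of the spot (colour), by position on the slide, in the trained (left) and untrained (right) section. Red dots mark spots of the CA1, CA3/CA2 and DG layers, spots under 1000 UMIs are left out, each panel has its own colour scale, and the brightest spots share its last colour. Bc1 was brightest between the layers and Miat along them.

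Outside the hippocampus the level of Bc1 varied as well. Cluster 20 had 115 and 1197 CPM, with intervals that overlapped those of the neuropil in both sections. The hypothalamus, a centre of hormonal and autonomic control, had 80.3 and 818 CPM, and the thalamus, the relay to the cortex, 75.4 and 644 CPM. White matter, made of myelinated axons and glia, had 52.7 and 524 CPM, which was above the upper layers of the neocortex with 22.8 and 447 CPM. Both neocortical regions lay below white matter in each section, the deep layers at 25.4 and 417 CPM. The lowest region was the upper neocortex in the trained section and the choroid plexus, at 300.5 CPM, in the untrained section. The highest region was 5.33 and 4.09 times the lowest. In the order of the 15 regions, 13 of the 14 pairs of neighbours had overlapping intervals in the trained section and 9 of 14 in the untrained section. Across the 15 regions the log2 levels of the 2 sections had a Pearson r of 0.760, as a description over regions that share a library within each section.

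Spots with at least 1 UMI of Bc1 made up 28.6% of all spots in the trained section and 90.7% in the untrained one. After every spot was thinned to 1000 UMIs the shares were 5.88% and 41.2%. In the trained section the thinned share was 10.04% (6.54 to 14.6) in the neuropil and 4.55% (1.49 to 10.3) in CA1, with overlapping intervals, and in the untrained section it was 63.4% (55.5 to 70.8) and 46.3% (37.2 to 55.6). Spots of the choroid plexus, an epithelium, had 7.46% (2.47 to 16.6) and 27.8% (21.0 to 35.5), at median depths of 8768 and 26034 UMIs. They set no level of background, since the neuronal markers there summed to 1241 and 631 CPM and the thinned share in the neocortex of the trained section was lower still. In that section the share of spots therefore did not separate layers, neuropil and choroid plexus at this depth. Moran's I in the deposited tables, a score of how strongly neighbouring spots share a level, was 0.0674 for Bc1 in the trained section (rank 2399 of 20513 genes) and 0.416 in the untrained section (rank 95 of 21498). Because the sections differed in depth, the 2 scores are not ranked against each other.

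Malat1, the nuclear speckle RNA, was also lower over the cell layers than in the neuropil when given as a share of all UMIs. Its level was 433 CPM (386 to 483) in the neuropil and 269 CPM in CA1, 224 CPM in CA3/CA2 and 308 CPM in DG in the trained section. The untrained section had 320.1 CPM (293 to 349) in the neuropil, 215 CPM in CA1, 167 CPM in CA3/CA2 and 234 CPM in DG. The log2 ratio of CA1 over neuropil was -0.68 (-0.92 to -0.45) and -0.58 (-0.75 to -0.40), of CA3/CA2 -0.95 and -0.94, and of DG -0.49 (-0.70 to -0.28) and -0.45 (-0.61 to -0.29). All 6 intervals lay below 0, but the size depended on the processing. In 1 draw of 1000 UMIs per spot the ratio was -0.05 for DG in the trained section and -0.07 for CA1 in the untrained section, and -0.31 and -0.52 averaged over all draws. Against neuropil spots that touched no layer, Malat1 in the untrained section was at -0.37 (-0.78 to 0.09) in CA1 and -0.25 (-0.65 to 0.20) in DG, so there the difference was not detectable. Per spot the order was the reverse of that for the share of RNA, as layer spots held more UMIs of all genes. A CA1 spot held 2.08 times as many Malat1 UMIs as a neuropil spot in the trained section and 1.49 times as many in the untrained section.

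Malat1 was high in white matter and thalamus and low in neocortex and hypothalamus. White matter had 359 CPM in the trained section and 412 CPM, the highest of all 15 regions, in the untrained section. The thalamus had 405 and 329.9 CPM. Cluster 4 had 545 CPM, the highest level in the trained section, and 261 CPM in the untrained section. The upper layers of the neocortex had 121 CPM, the lowest level in the trained section, and 155 CPM. The hypothalamus had 149.9 CPM and, as the lowest region in the untrained section, 147 CPM. The astrocyte markers moved with it between neuropil and CA1, where the 6 listed genes summed to 1538 CPM in the neuropil against 479 CPM in CA1 in the trained section and to 932 against 354 CPM in the untrained section. The 6 microglial markers summed to 481 against 176 CPM and to 458 against 222 CPM. The 5 neuronal markers ran the other way, at 1914 CPM in the neuropil and 3271 CPM in CA1 in the trained section and 1811 and 2695 CPM in the untrained section. None of these markers was at 0 in either region, and their part in the level of Malat1 was not tested. The astrocyte markers were higher in the hypothalamus, at 904 and 530 CPM, than in the thalamus, at 763 and 496 CPM, unlike Malat1. They were higher in white matter, at 1173 and 874 CPM, than in upper neocortex, at 596 and 432 CPM, like Malat1.

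Miat, the nuclear RNA of neurons, had a higher level over each cell layer than in the neuropil. It stood at 137 CPM (116 to 161) in CA1, 85.5 CPM in CA3/CA2, 163 CPM (143 to 185) in DG and 49.8 CPM (34.8 to 68.9) in the neuropil in the trained section. The untrained section had levels of 151 CPM (136 to 167), 89.3 CPM, 149 CPM (137 to 161) and 57.0 CPM (45.8 to 70.1). CA1 and DG overlapped in both sections and CA3/CA2 lay below both. The log2 ratio over neuropil was 1.45 (0.93 to 2.03) and 1.40 (1.07 to 1.76) for CA1, 0.77 (0.21 to 1.38) and 0.64 (0.30 to 1.01) for CA3/CA2, and 1.69 (1.20 to 2.26) and 1.38 (1.06 to 1.72) for DG. All of these intervals lay above 0, but the ratios in CA3/CA2 were near the median of all genes there, 0.58 and 0.47. Per spot the contrast was wider, with 9.21 and 5.91 times as many Miat UMIs in a CA1 spot as in a neuropil spot. In neuropil spots that touched no layer there were 6 Miat UMIs in 55 spots in the trained section and 1 UMI in 27 spots in the untrained section, or 49.1 and 5.52 CPM.

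Outside the hippocampus Miat was highest in the neocortex. The upper layers of the neocortex had 123 and 120.5 CPM and the deep layers 82.3 and 90.1 CPM, against 41.6 and 39.5 CPM in the thalamus. White matter had 21.6 CPM, the lowest level in the trained section, and 29.96 CPM. The choroid plexus had 28.2 CPM and, as the lowest region in the untrained section, 20.9 CPM. The highest region was 7.56 and 7.22 times the lowest, the widest span among the 6 RNAs in both sections. The 2 sections had a Pearson r of 0.948 across the 15 regions. The highest region differed by name, DG in the trained section and CA1 in the untrained section, but these intervals overlapped within each section.

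Snhg11, a snoRNA host gene of neurons, was higher over CA1 and lower over the granule layer than in the neuropil. In the trained section it reached 699 CPM (651 to 750) in CA1 and 457 CPM in CA3/CA2 but 212 CPM (189.9 to 237) in DG, with 294 CPM (256 to 337) in the neuropil. The levels in the untrained section were 582 CPM (553 to 612), 422 CPM, 185 CPM (172 to 199) and 265 CPM (240.2 to 292). CA1 over neuropil had a log2 ratio of 1.25 (1.03 to 1.47) and 1.13 (0.98 to 1.30), and CA3/CA2 of 0.63 (0.40 to 0.87) and 0.67 (0.51 to 0.83), where the median of all genes was 0.58 and 0.47. The granule layer lay below the neuropil, at -0.47 (-0.72 to -0.21) and -0.52 (-0.69 to -0.34). In 1 draw of 1000 UMIs per spot the latter was 0.50, above the neuropil. In the order of the 15 regions DG thus stood at rank 1 and 2 for Miat but at rank 14 in both sections for Snhg11. Per spot DG still held more Snhg11 than the neuropil, 2.28 and 1.85 times.

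The upper layers of the neocortex had the highest level of Snhg11 in both sections, 818 CPM (3082 UMIs) and 726 CPM (4449 UMIs). With the coarser clusters it led in neither section, and the habenula in the trained section and an unnamed cluster in the untrained section were highest. In the trained section the hypothalamus, at 804 CPM, and the habenula, a relay from forebrain to midbrain, at 798 CPM, had overlapping intervals with it, and in the untrained section their levels of 628 and 574 CPM did not reach it. White matter was at 139 and 191 CPM and the choroid plexus at 215 and 135 CPM. White matter, choroid plexus and DG were the lowest regions in both sections. The r between the sections was 0.937.

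Snhg9 and AA465934 varied less between regions than the other RNAs in the section where they could be measured. Snhg9 had 231 UMIs in the whole trained section and 4129 in the other, and AA465934 had 140 and 4302. In the untrained section Snhg9 ranged from 51.5 CPM in cluster 5 to 101 CPM in the meninges and vessels, 1.96 times, and AA465934 from 51.7 CPM in white matter to 91.2 CPM in cluster 20, 1.76 times. The same span was at least 2.81 times for each of the other RNAs. For both RNAs all 14 pairs of neighbours in the order of regions had overlapping intervals in both sections. Regions far apart in that order could still be told apart, as Snhg9 had 53.5 CPM (48.2 to 59.3) in the deep neocortex and 91.1 CPM (82.7 to 100.2) in the choroid plexus in the untrained section. The CA1 over neuropil ratio of Snhg9 was -1.28 (-2.79 to 0.06) and 0.17 (-0.18 to 0.54), from 8 and 13 UMIs in the trained section. For AA465934 it was -1.51 (-4.24 to 0.61), from 3 and 6 UMIs, and 0.43 (0.09 to 0.79). In the trained section no difference between layer and neuropil was detectable for either RNA at this depth. In DG in the untrained section both lay above the neuropil, at 0.41 (0.09 to 0.76) for Snhg9 and 0.46 (0.14 to 0.80) for AA465934. AA465934 did so in CA3/CA2 as well, at 0.42 (0.09 to 0.76). These ratios were near the median of all genes in that section, 0.37 in DG and 0.47 in CA3/CA2. In CA1 the median was 0.43, beside 0.43 for AA465934.

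**Figure D2:**
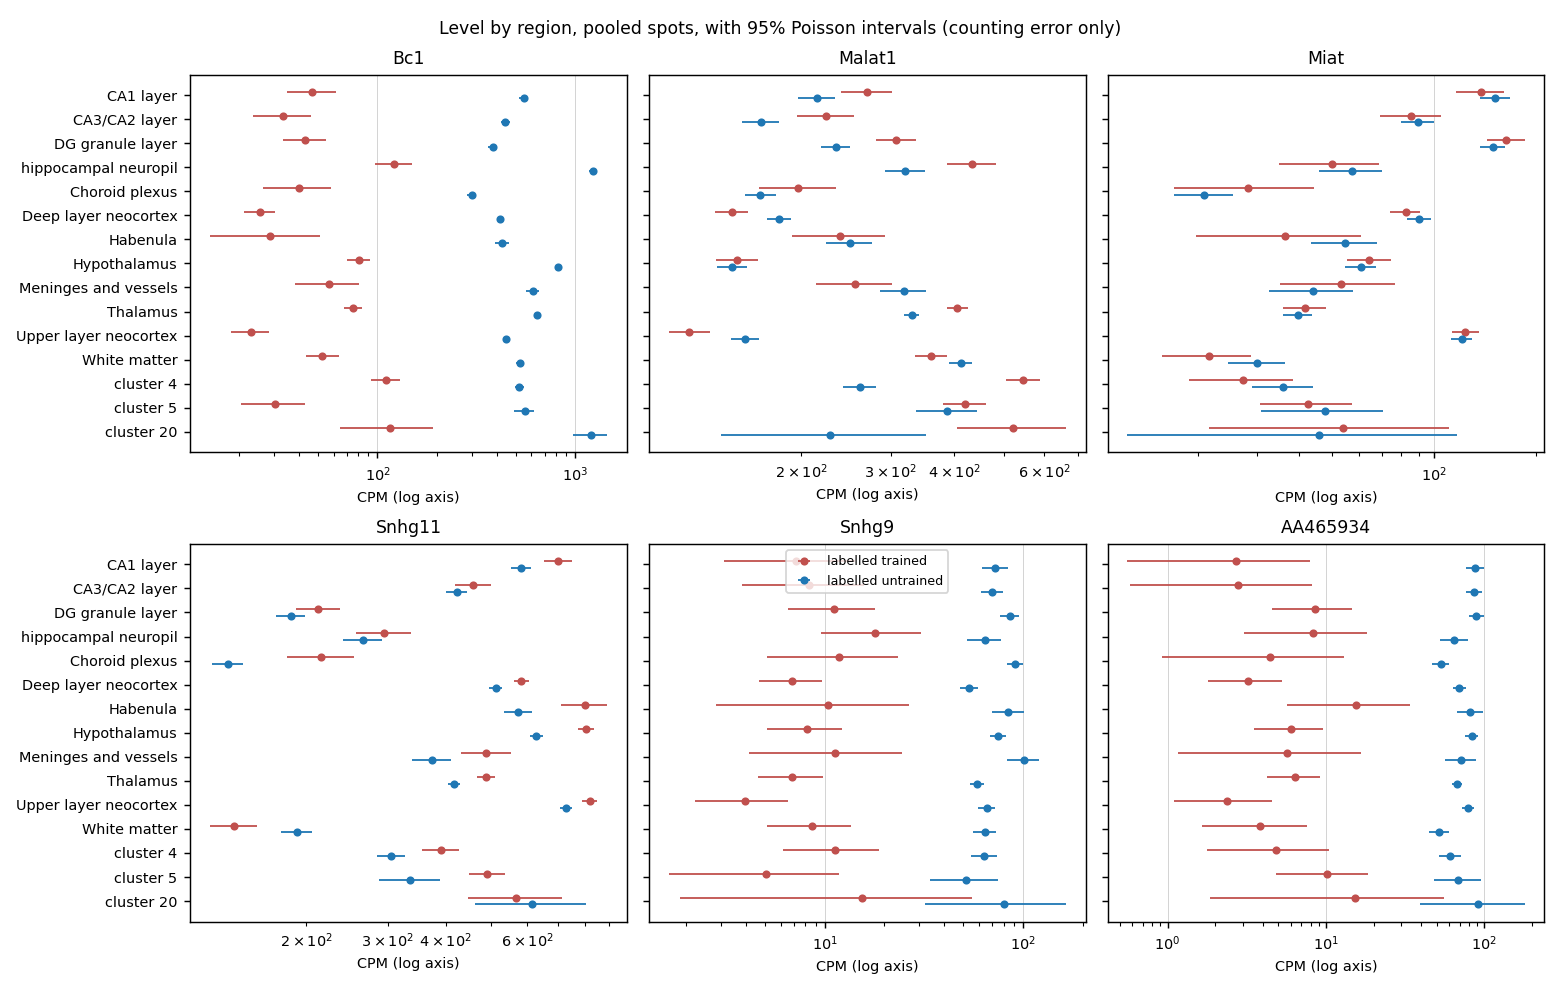
Level of each RNA (CPM, log axis) in the 15 regions with at least 30 spots in both sections, red for the trained and blue for the untrained section, with 95% Poisson intervals for counting error. Bc1 was highest in neuropil and Snhg11 in the upper neocortex in both colours, and the colours stood apart in every region for Bc1.

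Set against all genes, the layer ratios of these RNAs went both ways. Genes with at least 200 UMIs summed over both regions in each section were compared within the hippocampus, and of the 6 RNAs only Malat1 and Snhg11 passed in CA1. Miat and Snhg11 were higher in CA1 than in neuropil in both sections when the 6 were counted without the minimum, while among all 1518 genes compared 76.0% were higher in both. In CA3/CA2 again Miat and Snhg11 were higher in both sections, and the share among 1494 genes was 75.8%. In DG Miat alone was higher in both sections, as were 74.2% of 1904 genes. Malat1, Miat and Snhg11 passed the minimum there. Mitochondrial transcripts moved the other way, at 25.6% and 28.2% of UMIs in the neuropil against 8.79% and 14.4% in CA1. The median of all genes was 0.53 and 0.43 for CA1 over neuropil, 0.58 and 0.47 for CA3/CA2 and 0.46 and 0.37 for DG. Against that median Malat1 lay low, with 7.64% and 6.32% of genes below it in CA1, and Snhg11 lay high in CA1, with 87.7% and 91.9% of genes below it, nearer to the middle in CA3/CA2, with 53.7% and 66.9%, and low in DG, with 8.77% and 6.25%. Leaving the mitochondrial genes out of the total moved every CA1 ratio by -0.29 and -0.25 and every DG ratio by -0.27 and -0.24.

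RNAs known to be carried into dendrites gave a second scale for Bc1. Of 12 such mRNAs 11 could be compared in CA1, and 9 and 7 of them had a ratio below 0, with a median of -0.40 in the trained section and -0.18 in the untrained section. Shank1, a scaffold of the postsynaptic density, was lowest in the trained section at -0.95 (-1.31 to -0.60). Camk2a, the kinase of synaptic potentiation, was lowest in the untrained section at -0.55 (-0.66 to -0.44). Nrgn, a calmodulin-binding protein of dendrites, was the most abundant and stood at 1.64 and 1.28, the highest of the list. The ratios of Bc1, -1.37 and -1.16, lay below all 11, although its interval overlapped those of Shank1, Camk2a and Eef2 in the trained section. In DG of the trained section Shank1 lay below Bc1, at -1.75 (-2.14 to -1.38) against -1.50 (-1.99 to -1.02). Of 8 nuclear or chromatin-linked long noncoding RNAs only Meg3 and Rian, both from an imprinted cluster, could be compared in CA1. Meg3 stood at 1.35 and 1.17 and Rian at 1.60 and 1.15, beside 1.45 and 1.40 for Miat. In DG only Meg3 could be compared, at 0.25 and 0.24, beside 1.69 and 1.38 for Miat. The median of all genes there was 0.46 and 0.37. In CA1 the 13 mitochondrial genes, whose products are made in organelles abundant in dendrites and terminals, all had ratios below 0 in both sections. Their medians were -1.63 and -0.98.

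**Figure D3:**
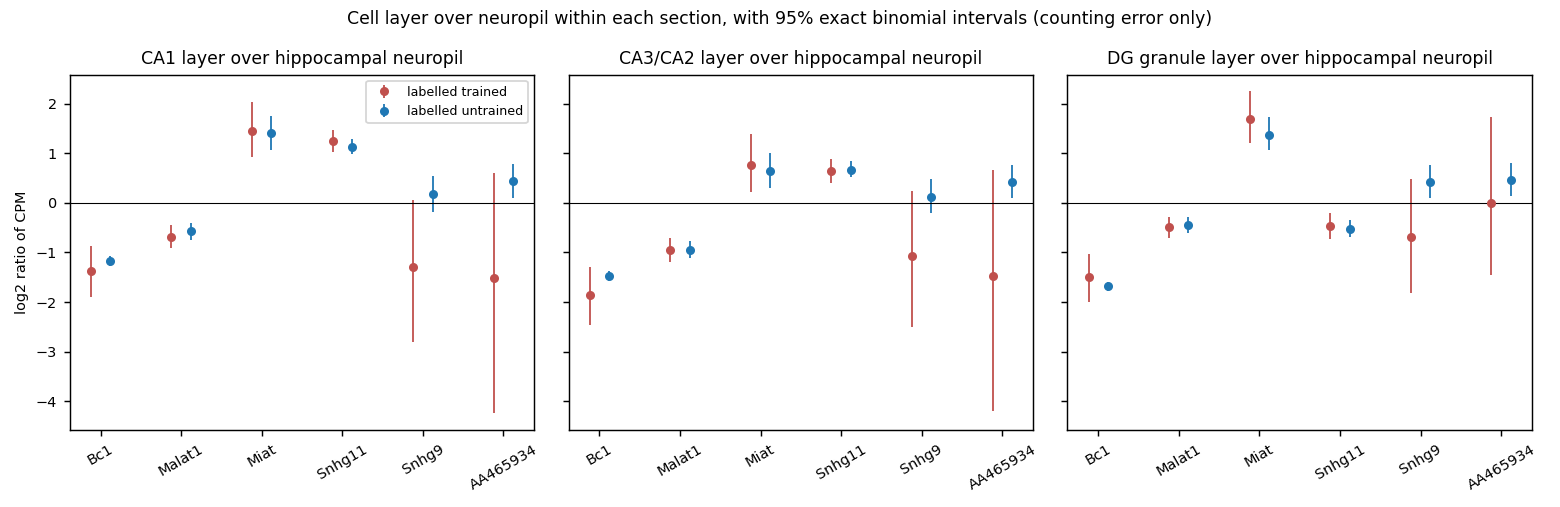
Log2 ratio of CPM of the CA1, CA3/CA2 and DG layers over hippocampal neuropil for each RNA, in the trained (red) and untrained (blue) section, with 95% exact binomial intervals for counting error. Miat lay above 0 and Bc1 and Malat1 below 0 in all panels, and Snhg11 changed side between the pyramidal layers and DG.

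The ratio between the sections was low for the 3 RNAs that had been chosen by it. In the hippocampus Bc1 had 54.5 CPM (241 UMIs) in the trained section and 554 CPM (6304 UMIs) in the untrained section, a log2 ratio of -3.34 (-3.54 to -3.16), or 10.2 times lower. On the left side the levels were 50.5 and 598 CPM and on the right side 56.0 and 530.4 CPM. Snhg9 had 10.6 CPM (47 UMIs) and 75.1 CPM (854 UMIs), a ratio of -2.81 (-3.28 to -2.40). AA465934 had 5.65 CPM (25 UMIs) and 84.7 CPM (963 UMIs), a ratio of -3.88 (-4.54 to -3.33). All 3 were lower in the trained section by more than 2-fold, as were 0.670% of the 5818 genes with at least 400 UMIs over both sections, while 1.01% were higher by as much. All 6 RNAs passed that minimum. Nothing is read from this count, since the ratios had been known when these 3 were picked.

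Of the long RNAs Miat and Snhg11 had ratios near the median of all genes, 0.07, and Malat1 lay above it. Malat1 had 298 CPM (1319 UMIs) and 221 CPM (2519 UMIs), a ratio of 0.43 (0.33 to 0.53), with 83.2% of the 5818 genes below it. Snhg11 had 408 CPM (1803 UMIs) and 355 CPM (4042 UMIs), a ratio of 0.20 (0.12 to 0.28). Miat had 119 CPM in both sections (527 and 1354 UMIs), a ratio of 0.0018 (-0.15 to 0.15). Malat1 and Snhg11 changed sign between regions. Malat1 had 1.06 (0.91 to 1.22) in cluster 4, 1.17 (0.46 to 1.99) in cluster 20 and 0.30 (0.21 to 0.38) in the thalamus, but -0.31 (-0.44 to -0.17) in the deep neocortex, -0.36 (-0.53 to -0.20) in the upper neocortex and -0.20 (-0.33 to -0.07) in white matter. In cluster 4 the astrocyte markers were at 924 and 461 CPM and the microglial markers at 453 and 274 CPM, while in cluster 20 they were at 584 and 752 CPM and at 246 and 262 CPM. Their part in these ratios was not tested. Snhg11 had a ratio below 0 with its interval in white matter, at -0.45 (-0.66 to -0.25), and above 0 in the upper and deep neocortex, at 0.17 and 0.18.

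The low ratios of the short RNAs were seen outside the hippocampus as well. Over all other spots Bc1 had -3.40 (-3.48 to -3.32), Snhg9 -3.22 (-3.45 to -3.01) and AA465934 -3.93 (-4.22 to -3.67), while 166 of 11094 genes were lower and 145 higher by more than 2-fold there. By region Bc1 ranged from -4.29 (-4.62 to -3.98) in the upper neocortex to -2.24 (-2.51 to -1.99) in cluster 4. CA1 had -3.54, CA3/CA2 -3.71, DG -3.15 and the neuropil -3.33. Snhg9 ranged from -4.00 in the upper neocortex to -1.79 (-2.79 to -0.99) in the neuropil, and AA465934 from -4.98 in the upper neocortex to -2.28 (-3.87 to -1.23) in the habenula. All 3 had their lowest value in the upper neocortex, from 9 UMIs of AA465934 and 15 of Snhg9 in the trained section, and its intervals overlapped those of other regions, so this order is not firm. In cluster 20, with 2 and 7 UMIs, the interval of Snhg9 reached past 0, from -5.68 to 0.02. Bc1 and Snhg11 were the 2 of the 6 RNAs with the same highest region in both sections, while this held for 44.3% of the 8412 genes compared. With the coarser clusters it held for 0 of the 6.

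**Figure D4:**
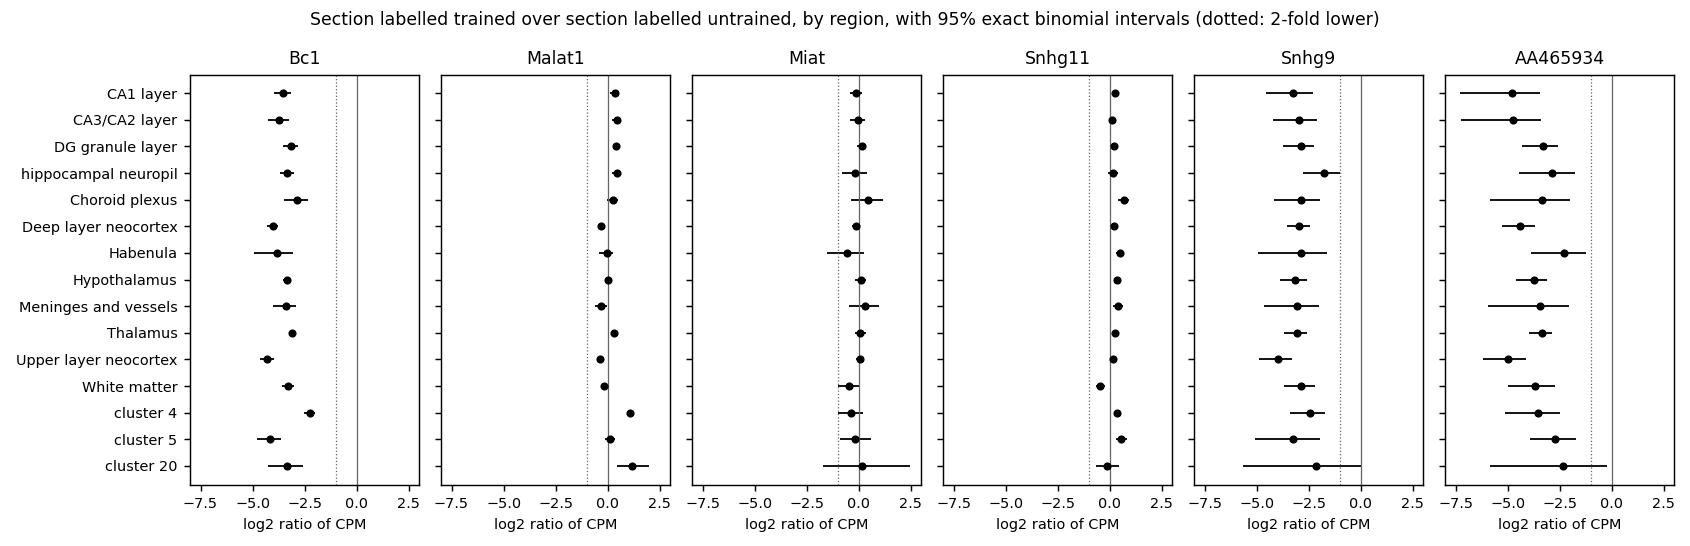
Log2 ratio of CPM, trained over untrained section, for each RNA in the 15 regions, with 95% exact binomial intervals for counting error and a dotted line at 2-fold lower. Bc1, Snhg9 and AA465934 lay below the dotted line in each region, while Miat and Snhg11 lay nearer to 0 and Malat1 reached 1.06 in cluster 4 and 1.17 in cluster 20.

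The 3 RNAs with the low ratio were also the 3 shortest, and outside the hippocampus other genes passed 2-fold more often in classes of shorter transcripts, in both directions. Beside the members only 2 of the genes compared in the hippocampus had a longest transcript under 300 bases, both genes of mitochondrial proteins. They were mt-Atp8 (204 bases) at -1.86 (-1.94 to -1.77) and mt-Nd4l (297 bases) at -1.28 (-1.37 to -1.20). Both lie on transcripts shared with a neighbouring gene, so their counts are uncertain. Of the 17 other genes from 300 to 500 bases 1 was lower by more than 2-fold, Gm10076 at -1.68 (-1.79 to -1.57), and the median of the class was 0.03. Ribosomal protein genes of this class ranged from Rps29 at -0.82 (-0.86 to -0.78) over Rpl38 at -0.26 to Rpl36 at 0.03, and mt-Nd3 stood at -0.65. From 500 to 1000 bases 1 of 322 genes was lower and 6 were higher, and the median of 0.19 lay above those of all longer classes, 0.04 to 0.09. In the rest of the section, again without the members, both genes under 300 bases were lower by more than 2-fold. Of 37 genes from 300 to 500 bases 7 were lower (18.9%) and 1 was higher, with Gm20594 lowest at -2.46 (-2.79 to -2.16) and 2900040C04Rik next at -1.93 (-2.08 to -1.79). From 500 to 1000 bases 22 of 463 genes were lower (4.75%) and 12 higher, and the share of lower ones was smaller in each longer class, down to 0.792% from 4000 bases on. In the longer classes 28 of 1695 genes, 52 of 4340 and 52 of 4547 were higher, also falling shares. The medians of the classes from 300 bases up lay between -0.02 and 0.14 there. The part of transcript length in the ratios of the 3 short RNAs was not tested.

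Other noncoding genes passed 2-fold between the sections in both directions. Of 17 other snoRNA host genes 9 could be compared in the hippocampus, none was lower by more than 2-fold and Snhg6 was higher, at 1.06 (0.86 to 1.25). Their median was 0.41, with Gas5, the most abundant, at 0.59 (0.54 to 0.64) and Snhg12, the lowest, at -0.19 (-0.37 to -0.01). Of the 15 other noncoding genes under 1000 bases 1 was lower and 1 higher by 2-fold, with a median of 0.28, and of the 43 longer ones none passed in either direction, with a median of 0.14. In the rest of the section 5 of 55 shorter ones were lower and 4 higher, and 4 of 190 longer ones were lower and 4 higher, with values from -3.22 to 2.61, beside the 166 and 145 of 11094 genes. The 12 dendritic mRNAs had a median of -0.16 and none passed 2-fold, from Dlgap3 at -0.77 to Shank3 at 0.78. The 3 nuclear long noncoding RNAs that could be compared stood at 0.12 for Rian, -0.30 for Meg3 and -0.48 for Neat1, the scaffold of paraspeckles. The 13 mitochondrial genes had a median of -0.62, and 2 of them passed.

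Neighbouring genes can share reads where the counting is not known to separate strands. Snhg9 lies on the opposite strand within the span of Rps2, a gene for a protein of the small ribosomal subunit, and 14 bases of their exons overlap. Rps2 went the other way, with 1210.2 and 638 CPM and a ratio of 0.92 (0.87 to 0.98). Miat overlaps Gm26953 on the opposite strand, which had 4 and 2 UMIs in the hippocampus. LTO1, the gene 462 bases beyond Bc1 on the same strand, had a ratio of 0.59 (0.18 to 0.99).

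Copies of Bc1 sequence elsewhere in the transcriptome were another place where counts could mix. The first part of Bc1 is the source of the ID family of rodent repeats, and 9 genes had a transcript that shared an exact stretch of at least 30 bases with it on the sense strand. Lrrc17, a gene for a leucine-rich repeat protein, shared 82 bases, positions 5 to 86 of Bc1, which reach into its long run of adenines. It had 16.7 and 157 CPM, a ratio of -3.22 (-3.59 to -2.90). Tatdn1, a nuclease, shared 57 bases and stood at -1.81 (-2.13 to -1.52), and Cnot3, a subunit of the deadenylase complex, shared 45 bases and stood at -0.94 (-1.28 to -0.62). Of the genes with a shorter match Sez6 and Supt7l shared 43 bases and stood at -0.06 and -0.41, Pex13 shared 36 bases and stood at 0.37, and Pip5k1a shared 33 bases and stood at 0.13. The 3 genes with the longest shared stretch thus had the 3 lowest ratios of these 7, and the other 2 of the 9 had too few or no counts. Lrrc17 was also lower over CA1 than in the neuropil, with 9.01 and 41.5 CPM in the trained section and 173 and 341 CPM in the untrained section. Whether reads of Bc1 were counted in Lrrc17 was not tested, and the split between the 2 genes is uncertain.

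**Figure D5:**
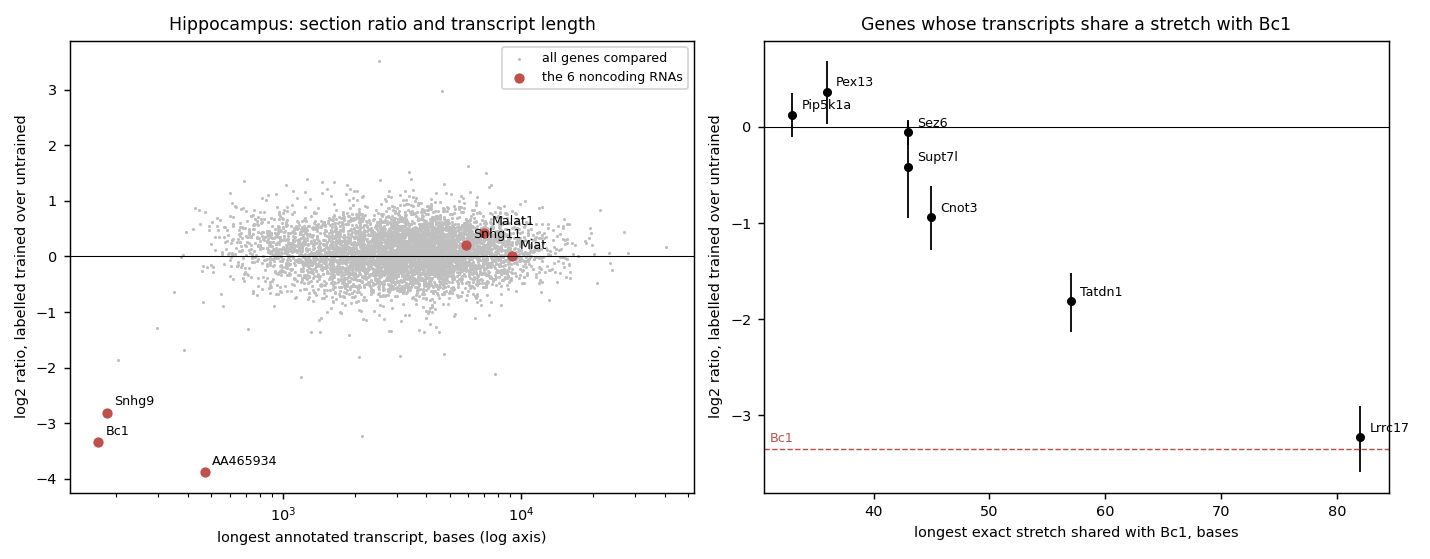
Left, log2 ratio of the sections in the hippocampus against the longest annotated transcript (bases, log axis) for all genes compared (grey) and the 6 RNAs (red). Right, the same ratio for 7 genes with at least 100 UMIs against the longest exact stretch shared with Bc1 (bases), with 95% exact binomial intervals and the ratio of Bc1 as a dashed line. The 3 short RNAs lay among the lowest genes, and Lrrc17, with 82 shared bases, lay at the line of Bc1.

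The genes whose levels were most like those of each RNA were taken over the 18 clusters with at least 30 spots in both sections, by the lower of the 2 Pearson r of log2 levels. The clusters of a section share a library, so these are descriptions. For Bc1 the closest was Lrrc17, with 0.891 and 0.988, followed by mt-Nd6, 0.815 and 0.798, and 2900052N01Rik, 0.805 and 0.706. Lrrc17 shares 82 bases with Bc1, and whether the 2 genes drew on the same reads was not tested. For Malat1 they were Gm42418, 0.831 and 0.836, a gene that overlaps ribosomal RNA sequence, then Lars2 and Aldh1a1. For Miat they were Gria2, a subunit of AMPA receptors, with 0.954 and 0.932, then Abi2 and Ppp3r1, a subunit of calcineurin. For Snhg11 they were Meg3, with 0.924 and 0.951, Clstn1 and Rian. Miat and Snhg11 had an r of 0.489 and 0.544 with each other, and Bc1 and Malat1 one of 0.588 and 0.277. Among the highest values for Snhg9 were those of Smim27, 0.688 and 0.608, and Wapl, and for AA465934 the highest were those of Rbm4, 0.730 and 0.760, Dus3l and Srrt. These RNAs had few UMIs in the trained section, and such values are no finding.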

How the data were processed

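Spatial expression was measured in 1 coronal section of each of 2 mice. The deposited counts are UMIs per gene and spot, which the authors obtained with Space Ranger 2.0.0 on mm10, per the submitters' processing notes, from reads trimmed with TrimGalore, and they were used as deposited. The authors' deposited tables add a score per gene and section, Moran's I, quoted only for Bc1. Their totals matched the counts for the 6 genes. Images and reads were not analysed here.

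Both sections were clustered together with scanpy 1.11.5 and igraph 0.11.9 (941 genes without the members and the listed genes, 30 principal components, 15 nearest neighbours, Leiden resolution 1.5, seed 7), leaving out 308 spots under 500 UMIs. A cluster took a marker set's name at a mean z score above 1 with at least 3 markers at 5 CPM and support among its 10 leading genes. The rules for naming and for the outline of the hippocampus were set after maps had been seen. The members and lists were chosen with earlier results of these data known. Every member is named, with the 3 genes most like it, the highest, lowest and most abundant gene of each list, and genes that share bases with a member. Some genes that this rule names are not reported here.

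Counts were pooled by region and scaled to CPM, and log2 ratios used a pseudocount of 0.5 UMI. Intervals at 95% were exact Poisson, Clopper-Pearson or conditional binomial. The minimum was 400 UMIs over both sections, or 200 UMIs in each section for layer ratios. No test was made, since spots of a section are no replicates. Interval coverage was tested on simulated Poisson counts, which hold no variation between spots, libraries or animals. The intervals assume such counts, so this checked the computation only. Transcripts and positions came from GENCODE vM21 on GRCm38 and matched 32158 of 32285 genes by identifier. Long noncoding genes were those of that release's long noncoding set. The software was edgeR 4.0.16 in R 4.3.3 (TMM scaling only) and, in Python 3.11.15, scipy 1.17.1, numpy 2.4.6, matplotlib 3.10.9 and pandas 2.3.3. Alternatives covered scaling, pseudocount, spot weights, thinning to 1000 UMIs, side, neuropil definition and resolution, and the expectation over all thinned draws was added after the data had been seen.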

Additional observations from a re-analysis of the deposited data

How the results depend on the processing

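Each ratio was recomputed under other scalings, spot weights, thinning, pseudocounts, sides, neuropil definitions and resolutions. No paired analysis was possible because each group held 1 section of 1 mouse. The section ratio in the hippocampus stayed between -3.55 and -3.22 for Bc1, -3.45 and -2.45 for Snhg9, -4.57 and -3.53 for AA465934, 0.35 and 0.71 for Malat1, -0.15 and 0.04 for Miat and 0.01 and 0.22 for Snhg11. CA1 over neuropil in the trained section stayed between -1.66 and -0.64 for Bc1, -1.03 and -0.30 for Malat1, 1.15 and 1.83 for Miat and 0.95 and 1.26 for Snhg11. In the untrained section the range was -1.43 to -0.80 for Bc1, -0.83 to -0.07 for Malat1, 1.15 to 4.19 for Miat and 0.88 to 1.89 for Snhg11. DG over neuropil ranged from -1.77 to -0.55 for Bc1, -0.84 to -0.05 for Malat1, 1.42 to 1.79 for Miat and -0.74 to -0.07 for Snhg11 in the trained section, and from -1.95 to -1.31 for Bc1, -0.69 to -0.25 for Malat1 and 1.13 to 4.17 for Miat in the untrained section. The number of RNAs higher in DG than in neuropil in both sections was 1, and 2 with each spot weighted equally and 2 with thinning to 1000 UMIs averaged over all draws, an alternative chosen after seeing the data, with AA465934 added. Snhg11 in DG of the untrained section was above the neuropil, at 0.50, in the 1 seeded draw of 1000 UMIs per spot, and at -0.41 averaged over all draws. At a Leiden resolution of 1.0 no RNA, 0 of 6, kept the same highest region in both sections. With a minimum of 100 UMIs or of 1 UMI the share of genes at least 2-fold lower in the trained section was 1.27% and 6.45% in the hippocampus and 2.92% and 7.55% elsewhere. The cause of these changes was not tested. The ratios of Snhg9 and AA465934 rested on 47 and 25 UMIs in the trained hippocampus, which limited their precision.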
